A study of Mus musculus with 2 samples.

Results

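The striated muscle miRNA genes are the 9 genes Mir1a-1, Mir1b, Mir133a-1, Mir133a-2, Mir133b, Mir206, Mir208a, Mir208b and Mir499. They were chosen by gene symbol, with no use of their counts, and all 9 were found among the 1973 miRNA genes counted in each library. Both libraries were made from small RNA (below 30 bases) of the embryonic facial prominence, the tissue buds that form the face and jaws, dissected from B6NCrl mouse embryos of mixed sex at embryonic day 12.5. Replicate 1 pooled 120 embryos and replicate 2 pooled 88 embryos. No mutant, treatment or second stage was analysed here, so the comparisons are between genes within the tissue and between the 2 pools. Reads on the own strand of miRNA genes numbered 4719337 in replicate 1 and 5929220 in replicate 2. Levels are given as CPM, a gene's reads on its own strand per 1000000 such reads. A read of this size holds about 1 mature strand, so counts were not divided by gene length.

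These genes are often called myomiRs. Mir1a and Mir133a genes lie in pairs that are transcribed together in heart and skeletal muscle. There, miR-1 favours differentiation and miR-133 acts on growth and on the serum response factor. Mir206 and Mir133b form a further pair, and Mir206 is made in skeletal muscle cells under the myogenic factors MyoD and myogenin. Mir208a, Mir208b and Mir499 lie in introns of myosin heavy chain genes and act on the choice of myosin type in heart and slow muscle. In the embryonic face, the jaw and facial muscles arise from mesoderm of the branchial arches.

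The mature strands sort these genes into groups by their seed, the stretch at bases 2 to 8 that pairs with target mRNAs. The sequences below are from RefSeq on GRCm38.p6, 5′ to 3′, with the seed in capitals, and show which genes can act on the same targets and how far similar strands can be told apart in sequencing.
miR-206-3p: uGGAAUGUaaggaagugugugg
miR-133b-3p: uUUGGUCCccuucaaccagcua
miR-208a-3p: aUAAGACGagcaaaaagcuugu
miR-208b-3p: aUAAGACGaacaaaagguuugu
miR-499-5p: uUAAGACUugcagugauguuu

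RefSeq mature strands were used for 6 of the 9 genes, without the 3p strands of Mir1a-1, Mir1b and the Mir133a genes. miR-208a-3p and miR-208b-3p have the same seed and the same base at 19 of 22 positions. Counted from 1 at the 5′ end of miR-208a-3p, the differences are G10A, A16G and C18U. miR-499-5p shares bases 2 to 7 with both, and its seed differs from theirs by G8U. Over the whole strand, 12 of 21 compared bases are the same as in miR-208a-3p and 10 of 21 as in miR-208b-3p. Among the 1738 mature strands in the RefSeq table, the seed of miR-206-3p was also found in miR-6349 and miR-6382, whose genes had 0 counts in both libraries. The seeds of miR-133b-3p and miR-499-5p were found in no other entry. The hairpins show wider kinship. A run of 13 bases that holds the whole seed of miR-206-3p is also in the hairpins of Mir1a-1 and Mir1a-2, on the 3p side of Mir1a-1. A run of 21 bases that holds the whole seed of miR-133b-3p is also in both Mir133a hairpins. miR-1 with miR-206, and miR-133a with miR-133b, are known as families with a common seed.

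Reads from the 5p and the 3p arm were counted together for a gene. The Mir206 hairpin, at chr1:20679010-20679082 on the plus strand, shows these arms in capitals, the 5p strand first and the 3p strand after it.
Mir206 hairpin: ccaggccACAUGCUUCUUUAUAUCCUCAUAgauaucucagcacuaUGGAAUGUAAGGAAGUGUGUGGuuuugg
The 5p strands of Mir206 and Mir1a-1, again from RefSeq with bases 2 to 8 in capitals, show the kinship of these genes.
miR-206-5p: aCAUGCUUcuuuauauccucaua
miR-1a-1-5p: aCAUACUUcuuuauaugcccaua
They agree at 20 of 23 positions and differ by G5A, C17G and U19C, counted from the 5′ end of miR-206-5p. The change at position 5 lies within bases 2 to 8, so these 5p strands do not have the same seed, unlike the seed stretch of the 3p side.

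The genes lie on 4 chromosomes (GRCm38, GENCODE M21). Mir206 (ENSMUSG00000065559.1) and Mir133b (ENSMUSG00000065480.1, chromosome 1, 20682769 to 20682887) are 3686 bases apart on the plus strand. Both overlap exons of the noncoding gene Gm28653 in GENCODE. RefSeq lists Lincmd1, the muscle noncoding RNA linc-MD1, across both. The exons of Lincmd1 were not compared with them. Mir1a-1 (ENSMUSG00000070144.1, 180389048 to 180389124) and Mir133a-2 (ENSMUSG00000065460.1, 180398379 to 180398482) lie on the plus strand of chromosome 2 with 9254 bases between them and no GENCODE host gene. RefSeq lists the noncoding gene Mir1a-1hg across both (chromosome 2, 180385604 to 180401802). On chromosome 18, Mir133a-1 (ENSMUSG00000065399.1, 10782909 to 10782976) lies on the minus strand in an intron of Mir133a-1hg. Mir1b (ENSMUSG00000080662.1, 10785446 to 10785567) lies on the plus strand there, in an intron of Mib1 and opposite Mir1a-2. Mir1a-2 was not found among the counted genes, so no level can be given for it.

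The myosin group is placed within its host genes. Mir208a (ENSMUSG00000065432.1, chromosome 14, 54949060 to 54949142, minus strand) lies in an intron of Myh6, the alpha myosin heavy chain of heart muscle. Mir208b (ENSMUSG00000077928.1, 54975700 to 54975776, minus strand) lies 26557 bases away in an intron of Myh7, the beta myosin heavy chain of heart and slow skeletal muscle. Mir499 (ENSMUSG00000076312.1, chromosome 2, 155622880 to 155622958, plus strand) lies in an intron of Myh7b, a related myosin gene.

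Mir206 made up nearly all of the counts assigned to these genes. The 9 genes held 5627 counts, or 0.119% of gene counts (exact Clopper-Pearson interval 0.116 to 0.122), in replicate 1 and 9277 counts, or 0.156% (0.153 to 0.160), in replicate 2. Their share averaged 0.138% ± 0.0263 (SD, n = 2). Mir206 alone gave 89.6% of these counts in replicate 1 (88.8 to 90.4) and 94.1% in replicate 2 (93.6 to 94.6). The intervals cover counting error only, and reads lost to sequence shared between genes, described below, are not in these shares. The tissue was sampled in bulk, so fewer muscle cells and less miRNA per muscle cell cannot be told apart.

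Of the 9 genes, 6 had at least 10 counts in each library and are called detected here, against 20% of all 1973 genes. Mir1b reached this minimum in replicate 2 with exactly 10 counts, and with a minimum of 20 counts 5 genes remained. The genes below the minimum were Mir1a-1, Mir133a-1 and Mir133a-2.

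Mir206 had 5041 counts (1068 CPM, exact interval 1039 to 1098) in replicate 1 and 8728 counts (1472 CPM, 1441 to 1503) in replicate 2. Its mean of 1270 ± 286 CPM (SD, n = 2) placed it at rank 91 of the 395 detected genes. The gene directly above it in the order of mean level was Mir503 at 1297 ± 32.4 CPM, and the one directly below was Mir467e at 1209 ± 104 CPM. The levels of Mir503 and Mir467e lay within the range that Mir206 spanned between the libraries, so these neighbours did not differ beyond their spread.

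Mir133b, the partner of Mir206 in the same noncoding host, had 61 counts (12.9 CPM, 9.89 to 16.6) in replicate 1 and 152 counts (25.6 CPM, 21.7 to 30.1) in replicate 2. Its mean was 19.3 ± 8.99 CPM. Reads of Mir206 outnumbered those of Mir133b by a ratio of 82.6 (64.2 to 108.2) in replicate 1 and 57.4 (48.9 to 67.9) in replicate 2. The intervals of this ratio overlapped, which does not show that it was the same in both libraries. The ratio in replicate 2 was 0.695 times that in replicate 1. How much of the gap between Mir206 and Mir133b reflects reads lost to shared sequence, described below for Mir133b, was not tested.

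Mir208b was the next most abundant gene after Mir206, with 372 counts (78.8 CPM, 71.0 to 87.3) in replicate 1 and 267 counts (45.0 CPM, 39.8 to 50.8) in replicate 2. Mir208a, in the neighbouring myosin gene, had 78 counts (16.5 CPM, 13.1 to 20.6) and 41 counts (6.91 CPM, 4.96 to 9.38) in replicates 1 and 2. Both Mir208 genes had their higher level in replicate 1. Mir208b exceeded Mir208a by a ratio of 4.77 (3.73 to 6.17) in replicate 1 and 6.51 (4.67 to 9.28) in replicate 2, intervals that overlapped. Mir499 had 49 counts (10.4 CPM, 7.68 to 13.7) and 77 counts (13.0 CPM, 10.2 to 16.2) in replicates 1 and 2, which also overlapped.

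The Mir1 and Mir133a genes among the 9 had few or no counts. Mir1b had 26 counts (5.51 CPM, 3.60 to 8.07) in replicate 1 and 10 counts (1.69 CPM, 0.809 to 3.10) in replicate 2. Mir1a-1 and Mir133a-1 each had 0 counts in replicate 1 and 1 count in replicate 2 (0.169 CPM, 0.00427 to 0.940). Mir133a-2 had 0 counts in both libraries. The limit for a count of 0 was set at 3 counts, or 0.636 CPM for replicate 1 and 0.506 CPM for replicate 2, among reads that were assigned to the gene. The exact interval for a count of 0 reaches higher, to 0.782 CPM for replicate 1 and 0.622 CPM for replicate 2.

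**Figure D1:**
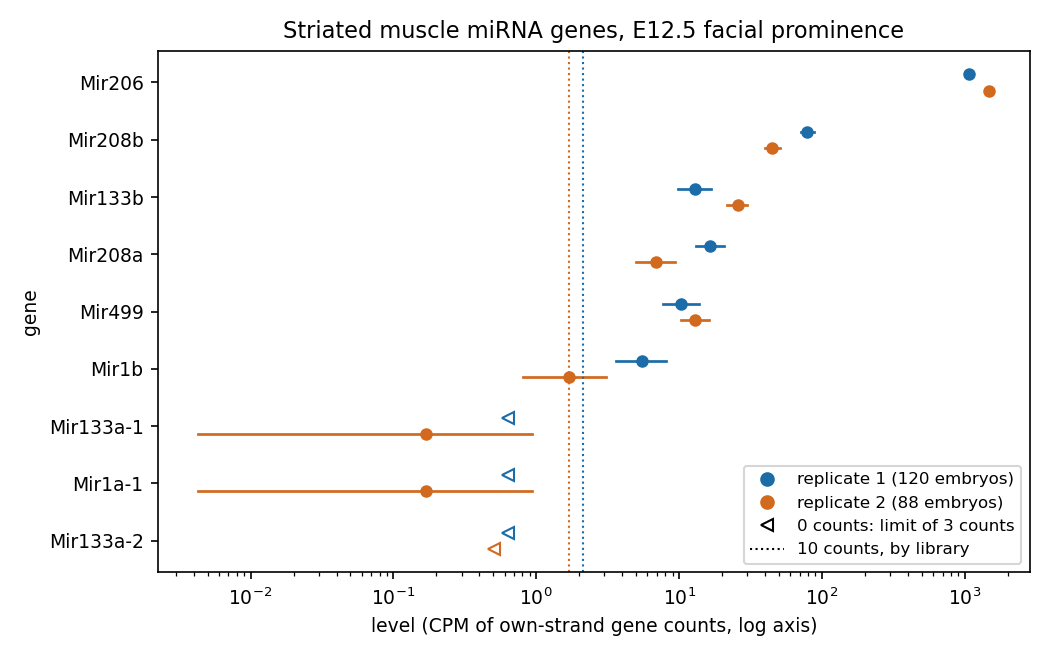
Level of the 9 striated muscle miRNA genes in CPM on a log axis, in order of mean level, with 1 point per library and bars for the exact 95% interval of counting error; open triangles mark the limit for a count of 0 and dotted lines mark 10 counts in each library. Mir206 lies above 1000 CPM in both libraries, while Mir208b, Mir133b, Mir208a and Mir499 lie between 6.91 and 78.8 CPM.

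By mean level the order was Mir206, Mir208b (61.9 ± 23.9 CPM), Mir133b, Mir208a (11.7 ± 6.80 CPM), Mir499 (11.7 ± 1.84 CPM) and Mir1b (3.60 ± 2.70 CPM), then the 3 genes below the minimum. Mir206 lay 20.5-fold above Mir208b in the means, or 13.6-fold in replicate 1 and 32.7-fold in replicate 2, and their libraries did not overlap. Mir208b lay 3.21-fold above Mir133b, but this was 6.10-fold in replicate 1 and 1.76-fold in replicate 2. Mir499 lay 3.25-fold above Mir1b, or 1.88-fold in replicate 1 and 7.70-fold in replicate 2. The libraries of these pairs did not overlap either. Mir133b, Mir208a and Mir499 could not be ordered, since their libraries overlapped. Mir208a was the highest of these 3 in replicate 1 and the lowest in replicate 2. In replicate 1 its exact interval (13.1 to 20.6) overlapped those of Mir133b and Mir499.

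Most of these genes ranked in the lower part of the detected genes. Mir208b stood at rank 238 of 395, between Mir194-2 (63.4 ± 5.09 CPM) and Mir33 (61.7 ± 9.61 CPM). Mir133b stood at rank 284, between Mir486 (19.96 ± 2.94 CPM) and Mir8112 (18.9 ± 2.37 CPM). Mir208a and Mir499 followed each other at ranks 308 and 309, with Mir1968 (12.0 ± 1.00 CPM) above them and Mir3064 (11.6 ± 1.60 CPM) below. Mir1b stood at rank 365, between Mir6958 (3.64 ± 0.850 CPM) and Mir7069 (3.59 ± 0.312 CPM). The median level of the 6 detected genes was 15.5 CPM, against 122 CPM over all 395 detected genes.

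Sequence shared between genes limits how far these levels can be compared, because reads with several mapping places were assigned to no gene. Such reads made up 26.0% of replicate 1 and 27.9% of replicate 2. All 22-base windows of the Mir206, Mir133b, Mir208a, Mir208b and Mir499 hairpins were found in no other GENCODE miRNA gene. The same held for 323 of the 395 detected genes (81.8%) and for 53.5% of the 1894 listed genes with a sequence. The other 4 genes had windows in common with a copy.

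The shared stretches of the low genes were longer than a mature strand. Mir1a-1 has a run of 28 bases in common with Mir1a-2, at bases 45 to 72 of its 77-base hairpin, which is the 3p side. Of its 22-base windows, 87.5% were found in no other gene. Mir133a-2 has 31 bases in common with Mir133a-1, at bases 54 to 84 of its 104-base hairpin, and 84.3% of its windows were unshared. In Mir133a-1 the figure was 72.3%, the lowest of the 9 genes. How many reads of miR-1a and miR-133a were lost in this way was not tested, so their low counts show only what was assigned.

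Mir133b and Mir1b are intermediate cases. Mir133b has a run of 21 bases in common with both Mir133a genes, and that run holds 21 of the 22 bases of the miR-133b-3p strand shown above. A full-length miR-133b-3p read is therefore set apart by its last base, the only base of the strand outside the run, and shorter reads from it would match all 3 Mir133 genes. At a window of 18 bases, 96.1% of Mir133b windows were unshared. Mir1b has 28 bases in common with Mir1a-1 on the opposite strand, and its longest run on the same strand in any other gene is 13 bases. Mir206 has at most 13 bases in a row in common with another gene, and all of its 18-base windows were unshared.

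**Figure D2:**
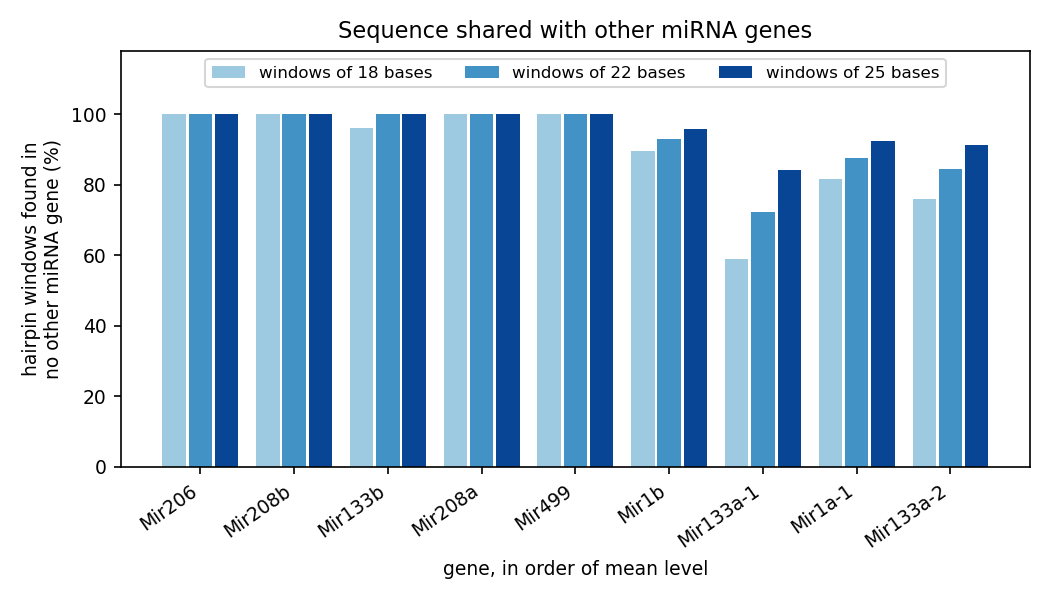
Share of the windows of each hairpin, in percent, found in no other GENCODE miRNA gene on either strand, for windows of 18, 22 and 25 bases. For Mir1b, the overlapping Mir1a-2 was not counted among the other genes. Genes are in order of mean level. The 5 genes with the highest levels are at 100% for 22-base windows, and Mir133a-1 is lowest at 72.3%.

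Between the pools, the Mir206 and Mir133b pair and the Mir208 genes went in opposite directions. Mir206 and Mir133b were higher in replicate 2, whereas Mir208a, Mir208b and Mir1b were higher in replicate 1. The log2 ratio of replicate 2 over replicate 1 was 0.46 for Mir206 (exact interval 0.41 to 0.51) and 0.98 for Mir133b (0.55 to 1.44). It was -0.81 for Mir208b (-1.05 to -0.58), -1.26 for Mir208a (-1.84 to -0.70) and -1.71 for Mir1b (-2.93 to -0.61). Mir499 had a ratio of 0.32 with an interval that held 0 (-0.22 to 0.86).

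Each ratio was tested against counting error with a two-sided exact binomial test, adjusted over all 395 detected genes by the Benjamini-Hochberg method. This compares the 2 libraries, not conditions. Among the 6 detected genes, 5 differed beyond counting error, against a background of 51.9% of detected genes. Higher in replicate 2 were 2 of the 6 (background 27.1%), and higher in replicate 1 were 3 of the 6 (background 24.8%). The exact binomial adjusted p was 1.55e-72 for Mir206, 6.96e-12 for Mir208b, 1.01e-05 for Mir133b, 1.36e-05 for Mir208a and 0.00257 for Mir1b, and 0.348 for Mir499. With a limit of 2-fold in addition, 2 of the 6 genes were called, Mir208a and Mir1b, both higher in replicate 1. The background under that rule was 4.05% of detected genes in either direction, 3.04% for genes higher in replicate 1 and 1.01% for genes higher in replicate 2. Mir133b lay just inside 2-fold. When 5 counts were required instead of 10 it was called too, higher in replicate 2 (log2 ratio 1.00), which made 3 of the 6 genes and 19 of 465 genes in all.

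With a spread between pools allowed for, none of these genes passed. edgeR estimated a common coefficient of variation of 0.190, but from these same 2 libraries, so no independent estimate of that spread was to be had. With the coefficient fixed at 0.2, edgeR's exact test gave adjusted p values of 0.560 for Mir208a, 0.651 for Mir1b, 0.769 for Mir133b and 1 for Mir206, Mir208b and Mir499. It called 0 of the 6 genes, against 0.506% of all detected genes. At an unadjusted p under 0.05 in edgeR's exact test, 3 of the 6 genes passed (Mir208a, Mir1b and Mir133b), against 5.06% of detected genes.

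The genes that differed beyond counting error sat toward both ends of the distribution of ratios. Mir1b had the lowest ratio but 2 (rank 3 of 395 from the bottom), Mir208a stood at rank 7 and Mir208b at rank 23 from the bottom. Mir133b stood at rank 6 and Mir206 at rank 35 from the top. Mir499, with an interval that held 0, stood at rank 62 from the top. The median absolute log2 ratio of the 6 genes was 0.90, against 0.23 over all detected genes. Ratios were wider at low levels: the median absolute log2 ratio was 0.33 for the 81 detected genes below 10 CPM, 0.30 for the 101 genes from 10 to 100 CPM and 0.16 for the 100 genes at 1000 CPM or more. Of the 101 genes from 10 to 100 CPM, which include Mir133b, Mir208a, Mir208b and Mir499, 5.94% differed at least 2-fold. Among the 81 genes below 10 CPM, which include Mir1b, 8.64% did.

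**Figure D3:**
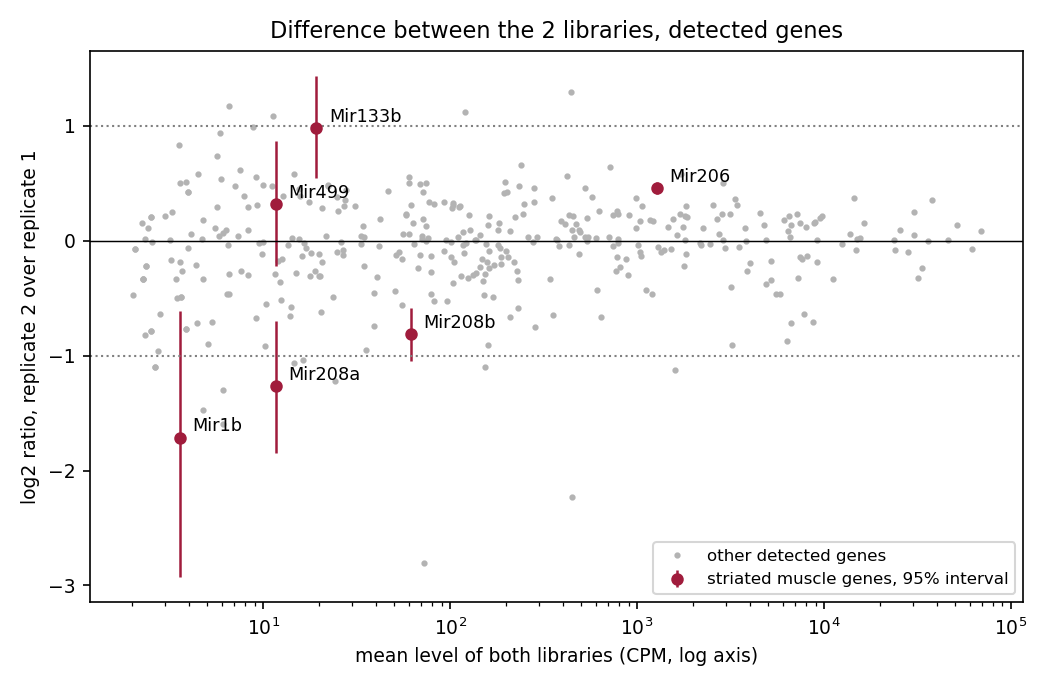
Log2 ratio of replicate 2 over replicate 1 against the mean level in CPM (log axis) for the 395 detected genes, with the 6 detected striated muscle genes in red and their exact 95% intervals; dotted lines mark a 2-fold difference. Mir133b (0.98) and Mir206 (0.46) lie above 0, while Mir208b (-0.81), Mir208a (-1.26) and Mir1b (-1.71) lie below it.

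Ratios between these genes within a library do not depend on the scaling of the libraries. Mir206 exceeded Mir208b by a ratio of 13.6 (12.2 to 15.1) in replicate 1 and 32.7 (28.9 to 37.1) in replicate 2, so the ratio was 2.41-fold higher in replicate 2 and the intervals did not overlap. Mir133b had fewer counts than Mir208a in replicate 1, with an interval of their ratio that held 1, and more counts in replicate 2. The ratio of Mir133b to Mir208a was 0.782 (0.550 to 1.11) in replicate 1 and 3.71 (2.61 to 5.37) in replicate 2. Mir208b exceeded Mir499 by 7.59 (5.63 to 10.4) in replicate 1 and 3.47 (2.68 to 4.53) in replicate 2. By contrast, the ratio of Mir206 to Mir499 was 102.9 (77.7 to 139) in replicate 1 and 113 (90.6 to 144) in replicate 2, with overlapping intervals.

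As shares of the 9 genes, Mir206 and Mir133b together made up 90.7% of counts (89.9 to 91.4) in replicate 1 and 95.7% (95.3 to 96.1) in replicate 2. The myosin-hosted Mir208a, Mir208b and Mir499 made up 8.87% (8.14 to 9.64) in replicate 1 and 4.15% (3.75 to 4.58) in replicate 2. Mir499 had close shares, 0.871% in replicate 1 and 0.830% in replicate 2, and the difference was in Mir208b (6.61% and 2.88%) and Mir208a (1.39% and 0.442%). These intervals cover counting error and do not cover the spread between pools.

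**Figure D4:**
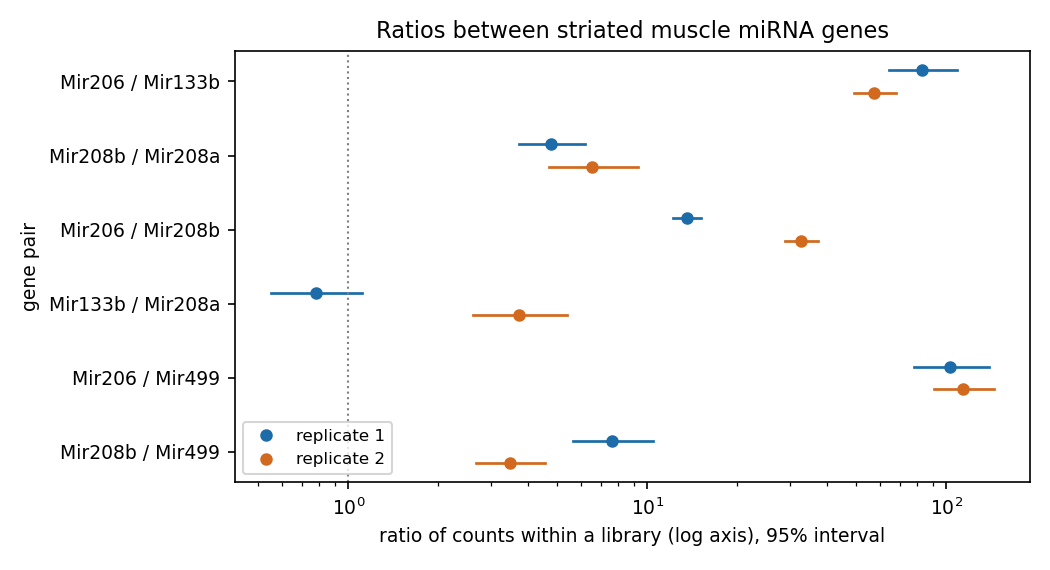
Ratio of the counts of 2 striated muscle miRNA genes within each library on a log axis, with exact 95% intervals of counting error. The ratios of Mir206 to Mir208b and of Mir133b to Mir208a are higher in replicate 2 with intervals that do not overlap, while those of Mir206 to Mir133b, Mir208b to Mir208a and Mir206 to Mir499 overlap.

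Genes with the nearest log2 ratio between the libraries, among those with at least 100 counts in each, were Mir450b (0.46), Mir141 (0.46) and Mir34b (0.45) for Mir206. For Mir208b they were Mir423 (-0.87), Mir92-2 (-0.75) and Mir135a-1 (-0.75). With 2 libraries this likeness rests on 1 ratio per gene.

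Summed levels of other tissues' markers are set beside these, where the median absolute log2 ratio over all detected genes was 0.23. The smooth muscle genes Mir143 and Mir145a, with Mir145b at 0 counts in both libraries, summed to 12762 CPM for replicate 1 against 16558 CPM for replicate 2, a log2 ratio of 0.38. The erythroid genes Mir451a, Mir144 and Mir486, all detected, summed to 223 CPM and 331 CPM (0.57), led by Mir451a at 186 and 294 CPM in replicates 1 and 2. Mir451a was the one erythroid gene that differed beyond counting error, against a background of 51.9% of detected genes. Mir486 had a ratio in the other direction (-0.31) and is also in the list of muscle genes below. Epithelial genes, with 7 of 7 detected, summed to 30805 and 35800 CPM (0.22). Of the 7, 6 were higher in replicate 2 and Mir200a was higher in replicate 1 (-0.43), each beyond counting error. Over all 395 detected genes, 27.1% were higher in replicate 2 beyond counting error and 24.8% were higher in replicate 1. Endothelial Mir126a stood at 29030 and 27230 CPM. The sum of the 9 striated muscle genes had a log2 ratio of 0.39. Whether the makeup of the dissected tissue had a part in the differences between pools was not tested.

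Other miRNA genes known to act in muscle differentiation, but not restricted to striated muscle, were measured in the same libraries. From a list of 22 such genes, 20 were found by symbol and 18 were detected, with a median level of 172 CPM. The highest were Mir214 at 45770 ± 198 CPM, Mir322 at 37986 ± 6628 CPM and Mir22 at 2735 ± 89.0 CPM. Of the 18, 7 were higher in replicate 2 and 3 higher in replicate 1 beyond counting error, against 27.1% and 24.8% of all detected genes. At 2-fold 1 of the 18 was called, against 4.05% of detected genes. This was Mir181a-2 (log2 ratio -2.23), at 737 CPM for replicate 1 and 157 CPM for replicate 2. The median log2 ratio of the list was 0.05, against 0.00 over all detected genes.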

How the data were processed

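Small RNA of 2 pools of embryonic facial prominence was sequenced. The authors deposited raw read counts per miRNA gene, 1 table per library, aligned to mm10 and annotated with GENCODE M4, per the file descriptions. Aligner, counter and trimming are not given in the sources used here. Of 11414919 and 12792420 reads, 25.7% and 19.4% were unmapped and 5.57% and 4.72% lay outside the listed genes. These and reads with several mapping places stayed out of library sizes.

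The tables have no header, and the column with 96.8% and 96.7% of gene reads was taken as the own strand. GENCODE M21 (GRCm38, the same assembly) gave symbols for 1894 of 1973 identifiers, positions and hairpins. No genome sequence was used, so windows of 22 bases were compared with the other GENCODE miRNA genes. Mir1a-2, which overlaps Mir1b on the opposite strand, was not counted as another gene for Mir1b.

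SDs, CPM and exact Clopper-Pearson intervals (95%, counting error only, no molecular identifiers) were computed with scipy 1.17.1 and Python 3.11.15. TMM factors of 0.998 and 1.002 came from edgeR 4.0.16 (R 4.3.3). Since 1 library against 1 leaves no residual degrees of freedom for a quasi-likelihood fit, an exact binomial test was used. On simulated counts for this comparison (395 genes, 200 changed 3-fold, counting error only) it recovered 96% of changed genes and called 0 others. The simulated counts held no spread between pools, so these figures do not carry over to libraries with such spread. DESeq2 1.42.0 size factors served as an alternative.

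Named were the 9 genes, genes next to them in level or position, the 3 nearest in ratio to Mir206 and Mir208b, markers, and the 3 highest and any called of the other muscle genes. Apart from the 9 genes, which were fixed by symbol, genes and lists were chosen with earlier results of these data known.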

Additional observations from a re-analysis of the deposited data

Results flagged for a closer look

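Reads on the strand opposite to Mir1b, counted here only in the both-strand alternative, numbered 4 in replicate 2, above the 3 counts that a count of 0 allows, and 1 in replicate 1. This strand is that of Mir1a-2, whose hairpin overlaps Mir1b, and the source of these reads was not tested.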

How the results depend on the processing

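The number of detected striated muscle genes was 6 with a minimum of 5 counts and with at least 1 count in both libraries. It was also 6 with counts on both strands and with either library left out (6 to 6), and 5 with a minimum of 20. With either library left out, their share of gene counts ranged from 0.119% to 0.156% and the share of Mir206 among them from 89.6% to 94.1%. Against all reads in place of gene reads, mean levels were lower for each gene with counts (Mir206 562, Mir208b 26.7, Mir133b 8.61 and Mir499 5.16 CPM), which follows from the larger denominator. TMM, DESeq2 size factors and both-strand counts moved no level beyond its SD and changed no direction or call of the 6 ratios, although both-strand counts took Mir1b to -1.29 (against -1.71). In edgeR's exact test Mir208a and Mir1b lost their calls, with adjusted p of 0.560 and 0.651 at a fixed coefficient of 0.2 and 0.430 and 0.553 with the fitted one. Over all detected genes, 16 were called, against 2 in edgeR's exact test at 0.2, 2 with the fitted coefficient, and 205 by the binomial test with no size limit. The log2 ratios are the same in these tests, which add spread to the error. No paired analysis was possible because the study has 1 group. With a library left out no ratio exists. A minimum of 5 counts, chosen for single ratios after seeing the data, took Mir133b to a log2 ratio of 1.00 and over the 2-fold limit, and left the calls of the other 5 genes as they were. The Mir1b interval is wide because its counts are low.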
